A study of Mus musculus with 10 samples.

Results

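The genes described here belong to the signalling route of the interleukin 6 (IL-6) family of cytokines. They are 10 mouse genes chosen by name: the ligands Lif and Cntf, the receptor subunits Il6st, Il6ra, Lifr and Osmr, the transcription factor gene Stat3, and 3 genes known to respond to this route, Socs3, Sbno2 and Bcl6. The choice was made with earlier results of these data known. Each was found by its Ensembl identifier in both deposited tables, so all 10 were present among 26411 gene identifiers in the table of the surgery experiment and among 55886 in the table of the injection experiment. Sequencing covered 10 libraries of the trigeminal ganglion, the seat of the face's sensory neurons and their glia. One experiment, on surgery, compared 3 libraries of sham-operated mice with 3 libraries of mice given the operation labelled pIONT, all taken on day 10. The injection experiment compared 2 libraries taken 6 hours after phosphate-buffered saline (PBS) with 2 taken 6 hours after urocortin 1 (UCN1), a peptide hormone of the corticotropin-releasing factor family, each injected into the ganglion. Their columns in the deposited data are numbered 1 and 3 in each group, while their titles, followed here, number them 1 and 2. Whether further injection libraries were made is not known. No allele or transgene is named for any group, and the sources used here give no strain, sex, age, dose or pooling of animals. Since nothing states that each library is a separate animal, p-values speak of the spread among these samples only, and that spread may be technical.

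In this route a cytokine joins receptor subunits at the cell surface around gp130, the shared signalling subunit encoded by Il6st. Kinases of the JAK family bound to the receptors then phosphorylate STAT3, which enters the nucleus and binds DNA. Among the genes it induces is Socs3, whose protein binds gp130 and JAK kinases and dampens the signal. In sensory ganglia the route is known for its activity after nerve injury and for its link to axon regrowth.

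The start regions of Socs3, Sbno2 and Bcl6 are shown because these 3 members carried the letters TTCNNNGAA, the core to which STAT dimers are known to bind, and were the members past the threshold in both experiments. The search covered 300-base windows around RefSeq transcript starts (250 bases before and 50 after, build GRCm38.p6), in which all 10 members were matched with 14 windows. The motif reads the same on both strands, so 1 search covers both, and it was searched with no other motif. It was found in 5 of the 14 windows (35.7%), against 2726 of 32851 windows of all genes (8.30%). By gene it was found in 3 of 10 members, against 2582 of 27025 genes (9.55%). The match is a description of letters and not a measured site, and a window without it says only that these letters are absent there. The sequences run 5′ to 3′ on the minus strand, with the motif in capitals, and bases at or after an annotated exon were left out, except where a motif runs into one. The genes lie at chr11:117966079-117970047 (Socs3), chr10:80056992-80105571 (Sbno2) and chr16:23965052-23988852 (Bcl6) in GRCm38. The Socs3 stretch is chr11:117969452-117969616, with the motif starting 154 bases before the RefSeq start. Sbno2 start A is chr10:80102720-80102952, whose motif starts 26 bases before the start and runs into an annotated exon. Sbno2 start B is chr10:80101188-80101437, with the motif 24 bases before the start. Bcl6 start A is chr16:23988853-23989102, with the motif 118 bases before the start. Bcl6 start B is chr16:23981284-23981533, inside an intron of the longer GENCODE gene, with 3 motifs at 168, 122 and 88 bases before the start. The Socs3 stretch and both Sbno2 stretches also lie inside their longer GENCODE genes. Only the Bcl6 start A stretch lies wholly before its gene.
Socs3: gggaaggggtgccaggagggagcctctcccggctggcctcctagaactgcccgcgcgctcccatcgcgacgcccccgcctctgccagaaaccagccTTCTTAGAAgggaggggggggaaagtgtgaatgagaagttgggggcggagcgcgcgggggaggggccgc
Sbno2 start A: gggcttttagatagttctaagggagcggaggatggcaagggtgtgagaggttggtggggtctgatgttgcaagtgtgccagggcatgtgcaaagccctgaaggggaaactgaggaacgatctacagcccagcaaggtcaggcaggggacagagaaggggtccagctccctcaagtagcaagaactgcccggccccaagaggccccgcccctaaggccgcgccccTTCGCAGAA
Sbno2 start B: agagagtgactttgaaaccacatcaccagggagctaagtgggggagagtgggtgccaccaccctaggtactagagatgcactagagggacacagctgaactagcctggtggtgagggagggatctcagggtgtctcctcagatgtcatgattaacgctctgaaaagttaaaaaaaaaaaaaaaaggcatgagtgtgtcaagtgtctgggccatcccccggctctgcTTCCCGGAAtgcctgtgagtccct
Bcl6 start A: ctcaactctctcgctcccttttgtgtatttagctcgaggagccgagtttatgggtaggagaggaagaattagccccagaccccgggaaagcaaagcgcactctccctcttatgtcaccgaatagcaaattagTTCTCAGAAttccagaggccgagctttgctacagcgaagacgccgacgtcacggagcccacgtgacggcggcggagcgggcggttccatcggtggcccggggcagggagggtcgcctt
Bcl6 start B: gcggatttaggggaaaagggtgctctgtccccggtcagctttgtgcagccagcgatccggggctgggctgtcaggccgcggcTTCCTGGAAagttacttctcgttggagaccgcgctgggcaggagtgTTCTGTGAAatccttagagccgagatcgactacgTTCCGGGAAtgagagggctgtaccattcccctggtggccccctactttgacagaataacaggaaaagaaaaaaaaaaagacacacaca
At least 3 motifs stood in 11 of the 32851 windows (0.0335%), and Bcl6 start B is 1 of them. The third Sbno2 window and the windows of Stat3, Il6st, Il6ra, Lifr, Osmr, Lif and Cntf held none.

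**Figure D1:**
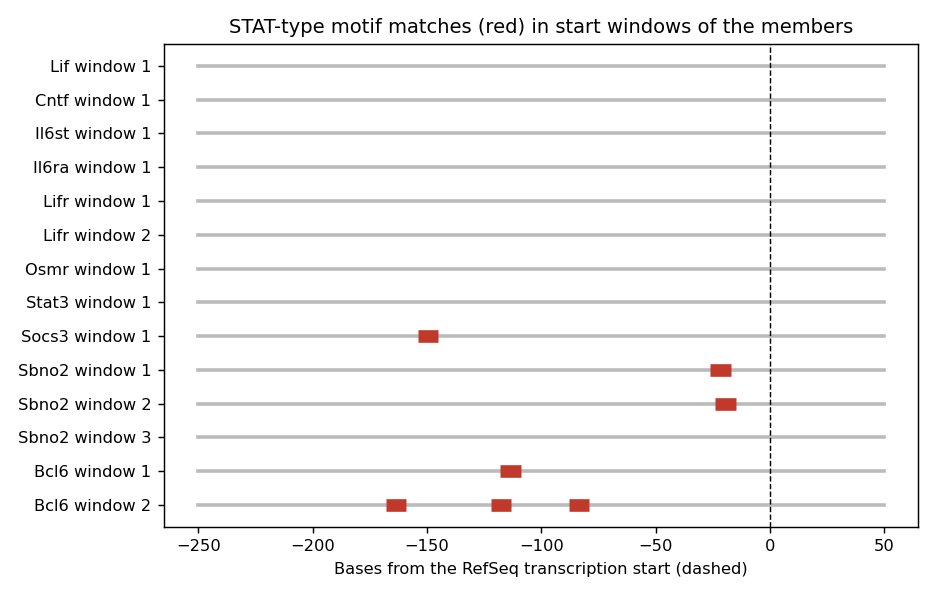
Positions of the motif TTCNNNGAA in the 14 RefSeq start windows of the 10 members, in bases from the transcript start; each line is 1 window and each mark 1 match. Marks stand in 5 windows, 1 for Socs3, 2 for Sbno2 and 2 for Bcl6, the last of which holds 3.

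Expression is given in FPKM, a read count scaled for the length of the gene and the depth of the library, as the authors deposited it. Each experiment has its own table with its own definition of gene length, so levels are never compared across the experiments. The reads assigned to genes, recovered from the steps of the low FPKM values, came to 24.2 to 29.7 M per surgery library and 15.7 to 17.1 M per injection library (M stands for 1e6 reads). The ganglion markers were present: all 8 markers of sensory neurons, 6 of satellite glia and 6 of Schwann cells passed the filter of a mean of 0.5 FPKM in both experiments. Some libraries stood apart in markers of other tissues. The summed FPKM of 8 macrophage markers was 145 to 262 in the sham libraries and 305 to 770 in the pIONT libraries, with pIONT 2 the highest. Of the 8 markers 4 rose, 5 were called by voom and all 8 had an unadjusted p under 0.05. The summed FPKM of the fibroblast and meninges markers was 357 in pIONT 2 and 184 to 245 in the other 5 surgery libraries. The summed FPKM of the pituitary hormone genes was 765 in sham 1 and 80.7 to 255 in the other 5 surgery libraries. Mog, of the oligodendrocyte and astrocyte list, was at 2.68 FPKM in sham 1 and at 0.0817 to 0.201 FPKM in the other 5. Sham 3 had the highest sums of neutrophil markers (175 FPKM, against 14.1 to 72.4 in the other 5 surgery libraries) and of red blood cell markers (402 against 85.0 to 258). In the injection experiment red blood cell markers summed to 45.6 and 152 FPKM after PBS and to 112 and 106 FPKM after UCN1. The pituitary sum there was 122 and 124 after PBS and 9.14 and 9.61 after UCN1. T and B cell markers summed to at most 3.56 FPKM in any library. After pIONT 2 of 8 neuron markers rose and 3 fell, 2 of 6 satellite glia markers rose, 5 of 6 Schwann cell markers fell, 1 of 5 endothelial markers fell and 1 of 5 tested oligodendrocyte and astrocyte markers rose. Over all genes tested after pIONT 10.5% were called higher and 12.3% lower. The lists of fibroblasts and meninges, neutrophils, T and B cells, red blood cells and pituitary had 0 calls there by limma, with 0 to 1 gene each at an unadjusted p under 0.05 and 0 calls by voom. After UCN1 2 of 8 fibroblast and meninges markers and 3 of 5 tested pituitary genes fell, against 0.297% of all genes tested. The 2 markers were Fmod, at 33.2 and 13.2 FPKM after PBS and 1.09 and 0.663 FPKM after UCN1, and Slc47a1. Slc47a1 was at 4.39 and 5.62 FPKM after PBS and at 0.167 and 0 FPKM after UCN1. The other 6 markers of that list were not called. The other 9 lists had 0 calls by limma, with 0 to 3 genes each at an unadjusted p under 0.05 and 0 to 1 call by voom.

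In the surgery experiment 5 of the 10 members rose after pIONT: Sbno2, Socs3, Bcl6, Lifr and Stat3. The ratio of mean FPKM was 2.41 for Sbno2 and 1.97 for Socs3, and 1.23 for Bcl6, 1.19 for Lifr and 1.19 for Stat3. Expression was tested with limma on log2(FPKM + 0.5) over 14672 genes, and a gene is said to have risen or fallen at a Benjamini-Hochberg adjusted p under 0.05. Of all genes tested, 10.5% were called higher, 12.3% lower and 22.8% in either direction. Among the members 8 passed the low-value filter, 5 were called higher and 0 lower, and 6 had an unadjusted p under 0.05 (37% of all genes tested). Their median log2 fold change was 0.25, against -0.02 over all genes tested. Because earlier results of these data were known when the members were chosen, these contrasts with all genes are descriptions and not tests. The added 0.5 makes a log2 fold change too small for genes of low level. In bulk RNA, fewer cells of a type and less RNA per cell cannot be told apart.

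**Figure D2:**
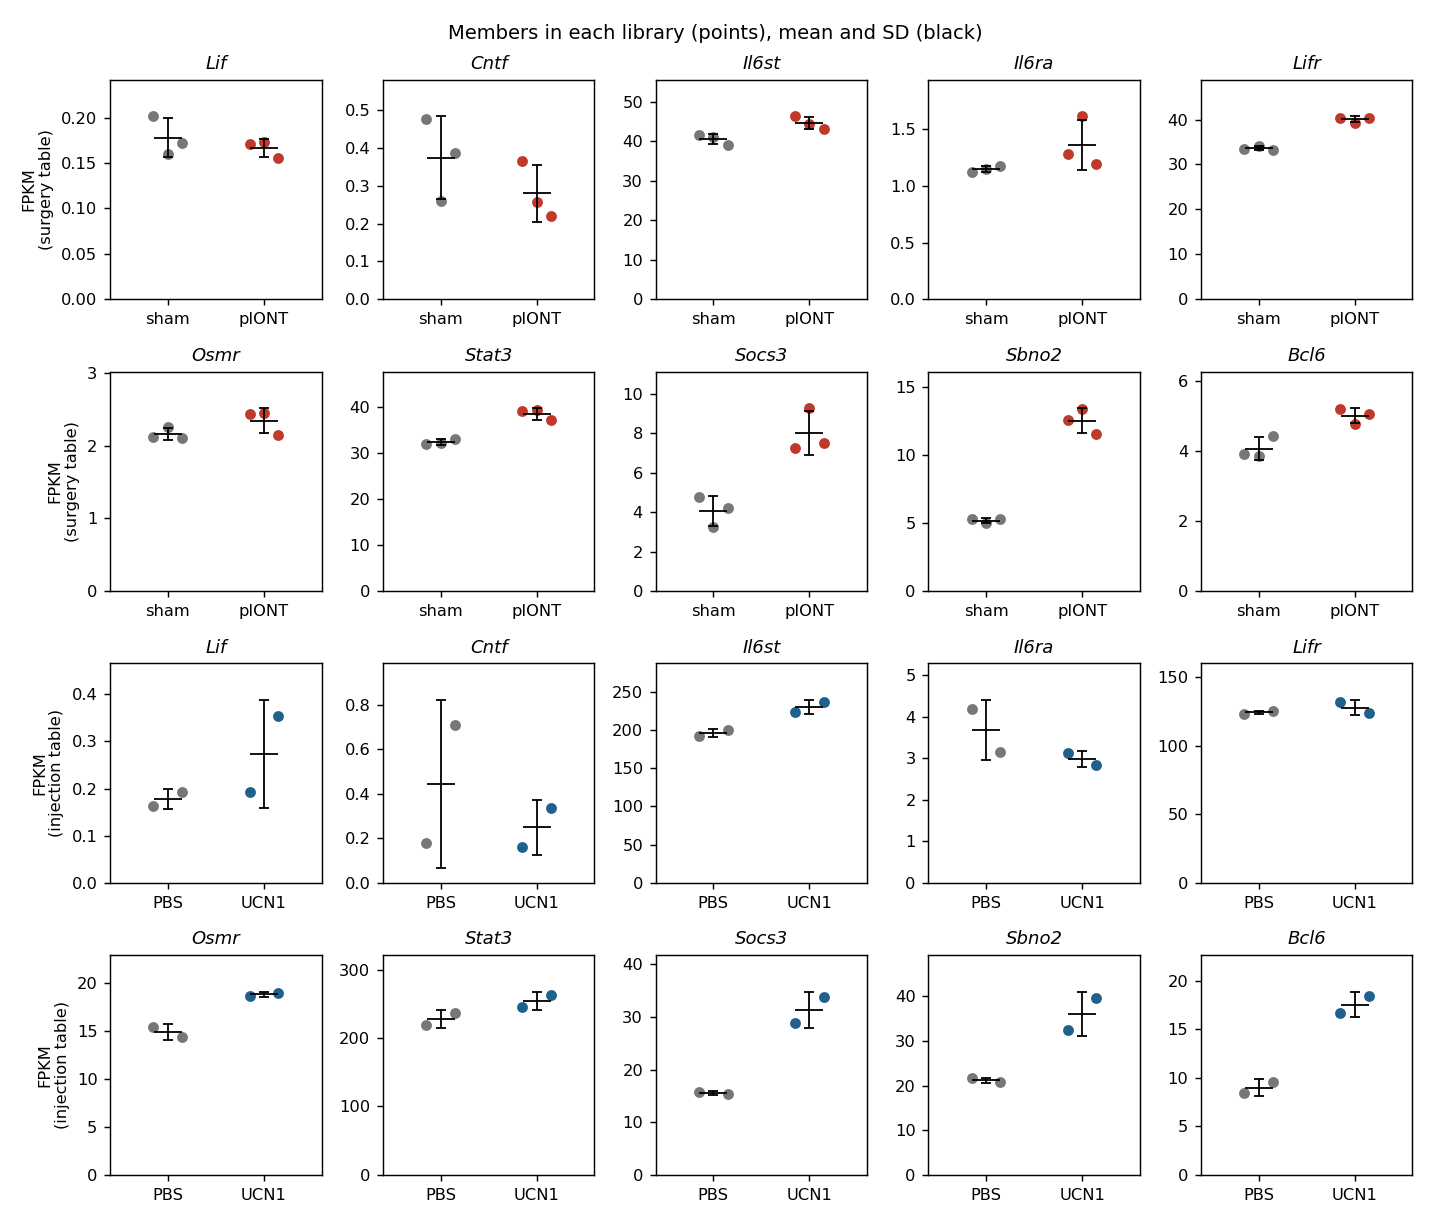
FPKM of the 10 members in every library, on linear axes from 0, with the surgery table above and the injection table below; points are libraries, and black lines are the group mean and SD. For Socs3, Sbno2 and Bcl6 every pIONT library lies above every sham library and every UCN1 library above both PBS libraries.

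Both ligand genes were near the limit of detection. Lif, the gene of leukaemia inhibitory factor, was at 0.201, 0.160 and 0.172 FPKM in sham 1 to 3 and at 0.171, 0.173 and 0.155 FPKM in pIONT 1 to 3. The groups overlapped, and 62 reads in sham stood against 61 in pIONT, a rate ratio of 0.937 with a 95% interval from counting error alone of 0.647 to 1.36. Cntf, the gene of ciliary neurotrophic factor, was at 0.476, 0.259 and 0.387 FPKM in sham and at 0.365, 0.256 and 0.220 FPKM in pIONT. Its groups overlapped as well, with 32 against 25 reads, a rate ratio of 0.744 and an interval of 0.423 to 1.30. Neither gene reached the filter, so neither was tested. Cntf shares 847 of its 1073 exon bases (78.9%) with Zfp91 on the same strand, and reads in that stretch cannot be given to 1 of the 2 genes by position.

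Among the receptor subunits Lifr rose. Lifr, which pairs with gp130 to receive LIF and CNTF, was at 33.5, 34.1 and 33.2 FPKM in sham and at 40.4, 39.3 and 40.4 FPKM in pIONT. The 3 pIONT libraries all lay above the 3 sham libraries and the groups were each narrow. The log2 fold change was 0.25 (SE 0.04, limma adjusted p = 0.00489). Il6st, the gene of gp130, was at 41.5, 41.2 and 39.0 FPKM in sham and at 46.3, 44.4 and 43.1 FPKM in pIONT. All pIONT libraries were above all sham libraries, yet the log2 fold change of 0.14 did not pass the threshold (95% interval 0.03 to 0.24, limma adjusted p = 0.0716). Il6ra, the gene of the subunit that binds IL-6, was much lower, at 1.12, 1.14 and 1.17 FPKM in sham and at 1.28, 1.61 and 1.19 FPKM in pIONT. The pIONT libraries were the higher ones, but pIONT 3 lay close to the sham libraries, and the log2 fold change of 0.17 had an interval of -0.07 to 0.41 (limma adjusted p = 0.270). Osmr, which pairs with gp130 to receive oncostatin M, was at 2.12, 2.25 and 2.11 FPKM in sham and at 2.43, 2.45 and 2.14 FPKM in pIONT. Its groups overlapped, and the log2 fold change was 0.09 with an interval of -0.07 to 0.26 (limma adjusted p = 0.377).

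Stat3, the gene of the transcription factor that carries the signal to the nucleus, was at 32.0, 32.3 and 33.2 FPKM in sham and at 39.2, 39.4 and 37.2 FPKM in pIONT. The groups did not overlap, and the log2 fold change was 0.24 (SE 0.04, limma adjusted p = 0.00808). The lowest pIONT library lay further above the highest sham library than the sham libraries lay from each other.

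Among the responding genes Sbno2 and Socs3 had the largest fold changes of the tested members. Socs3, the feedback inhibitor of the route, was at 4.76, 3.27 and 4.20 FPKM in sham and at 7.27, 9.28 and 7.51 FPKM in pIONT. Every pIONT library was above every sham library, with pIONT 2 the highest and sham 2 the lowest, and the log2 fold change was 0.90 (SE 0.14, limma adjusted p = 0.00605). The mean was 4.08 ± 0.750 FPKM in sham and 8.02 ± 1.10 FPKM in pIONT (SD, n = 3 each). Sbno2, which encodes a transcriptional corepressor known to be induced by IL-10 through STAT3, was at 5.30, 4.99 and 5.31 FPKM in sham and at 12.6, 13.4 and 11.6 FPKM in pIONT. Both groups were narrow and far apart, and its log2 fold change was 1.19 (SE 0.06, limma adjusted p = 8.42e-05). Bcl6, which encodes a zinc finger repressor of transcription, was at 3.91, 3.85 and 4.44 FPKM in sham and at 5.20, 4.78 and 5.05 FPKM in pIONT. Its groups did not overlap, and the log2 fold change came to 0.27 (limma adjusted p = 0.0287, SE 0.07). Of the 8 tested members, 7 were higher in all pIONT libraries than in any sham library, a placing shared by 18.7% of all genes tested. The opposite placing was seen for 24.7% of them, so 43.4% did not overlap.

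Of the 8 macrophage markers 4 also rose after pIONT, 5 were called by voom and all 8 had an unadjusted p under 0.05. Their median log2 fold change was 1.06, and 7 were higher in all pIONT libraries than in any sham library. The highest sums of macrophage markers and of fibroblast and meninges markers were in pIONT 2. Among the pIONT libraries pIONT 2 had the highest Socs3, Sbno2 and Stat3 values and the lowest Bcl6 and Lifr values. Without pIONT 2 the log2 fold change was 0.80 for Socs3, 1.14 for Sbno2, 0.30 for Bcl6, 0.23 for Stat3 and 0.26 for Lifr, and all 5 stayed past the threshold, with limma adjusted p-values from 0.000279 to 0.0423. Without sham 1, the library with the high pituitary sum, Socs3 was at 1.01, Sbno2 at 1.21, Stat3 at 0.23 and Lifr at 0.25, all past the threshold. Bcl6 was then at 0.25 and no longer past it (limma adjusted p = 0.0862). Without sham 3, the library with the high neutrophil and red blood cell sums, 1689 genes were called in place of 3344. Socs3 was then at 0.93, Sbno2 at 1.21, Bcl6 at 0.33, Stat3 at 0.26 and Lifr at 0.24, all past the threshold (limma adjusted p-values of 0.00117 to 0.0303). Bcl6 also lost its call without pIONT 1, without pIONT 3 and without sham 2, with log2 fold changes of 0.24 to 0.33 over all 6 such fits, and it lost it with no filter and on the TPM scale. The part of macrophages in these differences was not tested.

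**Figure D3:**
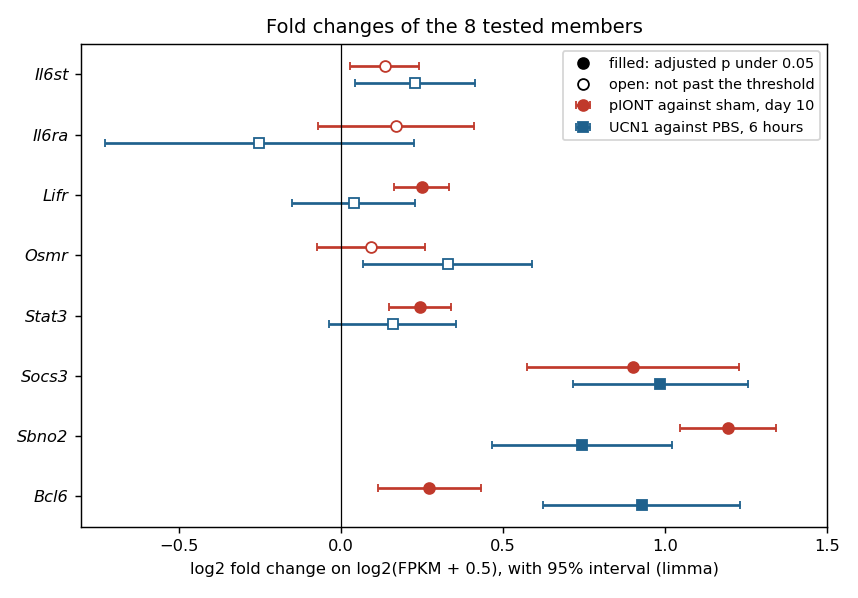
Log2 fold changes of the 8 tested members with their 95% intervals from limma, for pIONT against sham (circles) and UCN1 against PBS (squares); filled symbols have an adjusted p under 0.05. Socs3, Sbno2 and Bcl6 are filled in both experiments, and Lifr and Stat3 in the surgery experiment.

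In the injection experiment 3 of the 10 members rose 6 hours after UCN1: Socs3, Bcl6 and Sbno2, the responding genes. The ratio of mean FPKM was 2.02 for Socs3, 1.95 for Bcl6 and 1.70 for Sbno2. Of the 16139 genes tested, 0.304% were called higher, 0.297% lower and 0.601% in either direction. Again 8 members passed the filter, 3 were called higher and 0 lower, and 5 had an unadjusted p under 0.05 (13.1% of all genes tested). Their median log2 fold change was 0.28, against -0.01 over all genes tested. As in the surgery experiment, the choice of members makes these contrasts descriptions and not tests. With 2 libraries a group, no call of a member outlasted the loss of any 1 library.

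The ligand genes were again close to undetected. Lif was at 0.163 and 0.193 FPKM after PBS and at 0.193 and 0.354 FPKM after UCN1, 16 against 25 reads, with a rate ratio of 1.52 and an interval of 0.779 to 3.04. Cntf was at 0.178 and 0.711 FPKM after PBS and at 0.164 and 0.339 FPKM after UCN1, 16 against 9 reads, with a rate ratio of 0.547 and an interval of 0.213 to 1.31. Both overlapped between the groups and neither was tested.

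No receptor subunit among the members passed the threshold. Il6st was at 192 and 199.5 FPKM after PBS and at 223 and 236 FPKM after UCN1, with a log2 fold change of 0.23 (95% interval 0.04 to 0.41, limma adjusted p = 0.291). Osmr was at 15.5 and 14.3 FPKM after PBS and at 18.7 and 19.0 FPKM after UCN1, with a log2 fold change of 0.33 (0.07 to 0.59, limma adjusted p = 0.283). For both genes the UCN1 libraries lay above the PBS libraries. Il6ra was at 4.19 and 3.16 FPKM after PBS and at 3.12 and 2.85 FPKM after UCN1, the lower values being those of UCN1, with a log2 fold change of -0.25 (-0.73 to 0.22, limma adjusted p = 0.643). Lifr was at 123 and 125 FPKM after PBS and at 132 and 124 FPKM after UCN1, which overlapped, with a log2 fold change of 0.04 (-0.15 to 0.23, limma adjusted p = 0.875). Stat3 was at 219 and 237 FPKM after PBS and at 245 and 264 FPKM after UCN1. Its groups did not overlap, but the 2 libraries of each group differed by more than the gap between the groups, and the log2 fold change was 0.16 (-0.04 to 0.36, limma adjusted p = 0.467).

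Socs3 was at 15.8 and 15.3 FPKM after PBS and at 28.9 and 33.8 FPKM after UCN1. Both UCN1 libraries were far above both PBS libraries, for a log2 fold change of 0.99 (limma adjusted p = 0.0179, SE 0.12). Bcl6 was at 8.39 and 9.58 FPKM after PBS and at 16.6 and 18.4 FPKM after UCN1, also far apart, for a log2 fold change of 0.93 (limma adjusted p = 0.0326, SE 0.13). Sbno2 was at 21.6 and 20.7 FPKM after PBS and at 32.5 and 39.5 FPKM after UCN1. UCN1 2 was the higher of its group, the groups did not overlap, and the log2 fold change was 0.74 (SE 0.12, limma adjusted p = 0.0470). Of the 8 tested members 6 were higher in both UCN1 libraries than in both PBS libraries, and Il6ra was lower in both. Of all genes tested 21.8% were higher without overlap, 23.7% lower without overlap and 45.5% either.

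Leaving out any of the 4 libraries kept the log2 fold change of Socs3 between 0.87 and 1.10, of Bcl6 between 0.84 and 1.02 and of Sbno2 between 0.61 and 0.88. In none of the 4 fits was a member past the threshold by limma, while 3 to 4 members had an unadjusted p under 0.05, and 5 to 38 of all genes were called. The lone library of an arm is there assumed to vary like the others. With all libraries, the 3 calls also went with no filter on low values and with no variance trend. Macrophage markers summed to 94.7 and 110 FPKM after PBS and to 88.0 and 92.9 FPKM after UCN1, and none of the 8 was called by limma (1 with an unadjusted p under 0.05, 0 by voom). The pituitary sum, given above, differed between the groups without overlap, and 3 of its 5 tested genes fell. Fmod and Slc47a1 of the fibroblast and meninges list fell as well. The part of the tissues behind these markers in the differences was not tested.

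**Figure D4:**
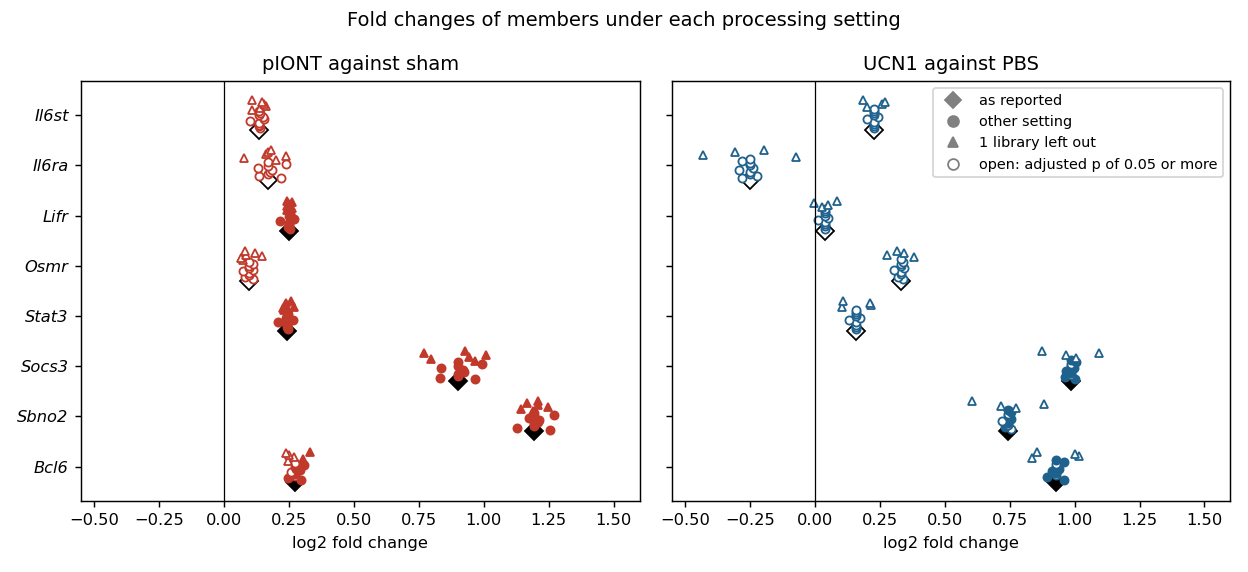
Log2 fold change of each tested member under each processing setting, for both experiments; diamonds are the values reported, circles other settings and triangles fits without 1 library, and open symbols have an adjusted p of 0.05 or more. Socs3 spans 0.77 to 1.01 in the surgery experiment and 0.87 to 1.10 in the injection experiment, where all its triangles are open.

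The members differed widely in level within a table. In the sham libraries Il6st had the highest level (40.6 ± 1.33 FPKM), followed by Lifr (33.6 ± 0.453) and Stat3 (32.5 ± 0.636), whose values overlapped slightly. Sbno2 (5.20 ± 0.183), Socs3 (4.08 ± 0.750) and Bcl6 (4.07 ± 0.325) followed, and Socs3 and Bcl6 were not separated beyond their spread. Osmr (2.16 ± 0.0796) and Il6ra (1.15 ± 0.0240) were lower, and Cntf (0.374 ± 0.109) and Lif (0.178 ± 0.0213) were the lowest (SD, n = 3 for each). In the authors' injection table Stat3 stood above Il6st after PBS, at a mean of 228 against 196 FPKM. That order depends on the gene length used: the recovered reads per kilobase over the union of exons gave Il6st 50.2 ± 1.38 and Stat3 40.3 ± 2.24 (SD, n = 2), because the union of Stat3 exons is 9527 bases and the mean of its transcripts 1687.3 bases. On that scale Lifr was at 39.4, Sbno2 at 6.04, Socs3 at 5.89, Bcl6 at 5.00, Osmr at 3.90 and Il6ra at 2.55 after PBS, the same order as in sham for these genes apart from Lifr and Stat3. The ratio of a gene's means between groups within a table does not depend on the length.

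The wider route was followed in lists of pathway genes, in which the members are included. These lists too were chosen with earlier results of these data known. Lif and Cntf were not tested. The ligand gene Ctf1, which encodes cardiotrophin 1, was tested and was taken by the naming rule in the injection experiment only. Its values say nothing of the other ligand genes. Ctf1 was at 0.980, 0.992 and 1.18 FPKM in sham and at 0.986, 0.959 and 0.815 FPKM in pIONT, which overlapped (log2 fold change -0.13, 95% interval -0.36 to 0.10, limma adjusted p = 0.388). It was at 2.25 and 1.81 FPKM after PBS and at 1.64 and 2.85 FPKM after UCN1, which also overlapped (log2 fold change 0.09, limma adjusted p = 0.926).

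Of 7 receptors 6 were tested in each experiment. Lifr alone was called in the surgery experiment, where the median log2 fold change of the list was 0.15. Over all genes tested there, 10.5% were called higher and 12.3% lower. After UCN1 0 of the 6 receptors were called by limma and 0 by voom, against 0.601% of all genes tested by limma. Among these receptors 3 had an unadjusted p under 0.05 (13.1% of all genes tested), and the median was -0.10. Of 11 JAK and STAT genes 10 were tested, and 4 rose after pIONT, against 10.5% of all genes tested: Jak1, Stat5a, Stat5b and Stat3. Jak1, the main kinase of gp130, was at 53.6, 55.2 and 53.0 FPKM in sham and at 70.1, 71.2 and 70.3 FPKM in pIONT. The groups were tight and far apart, for a log2 fold change of 0.38 (limma adjusted p = 0.000948, SE 0.04). Stat5a and Stat5b, which encode closely related factors used by growth hormone and other cytokines, rose, with log2 fold changes of 0.47 and 0.32 (limma adjusted p = 0.00661 and 0.0108). After UCN1 0 of the 10 were called by limma, with 0 at an unadjusted p under 0.05 and 0 by voom, and Jak1 had a log2 fold change of -0.01 (95% interval -0.18 to 0.17, limma adjusted p = 0.985).

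Among 16 inhibitors of JAK-STAT signalling, all tested, 4 rose and 2 fell after pIONT, with a median log2 fold change of 0.05. The shares over all genes tested were 10.5% higher and 12.3% lower. Besides Socs3 the rise was seen in Ptpn1, which encodes a phosphatase acting on JAK kinases, at 7.89, 7.65 and 7.68 FPKM in sham and at 10.9, 12.6 and 10.6 FPKM in pIONT (log2 fold change 0.52, limma adjusted p = 0.0035). Socs2, known as the inhibitor of growth hormone signalling, rose with a log2 fold change of 0.50 (limma adjusted p = 0.00477). Socs5 fell, from 13.2, 13.2 and 12.9 FPKM in sham to 10.2, 9.74 and 10.7 FPKM in pIONT (log2 fold change -0.35, limma adjusted p = 0.00385). The remaining called inhibitors, named after their values were seen, were Cish, which rose by 0.38 on the log2 scale, and Ptpn11, with a log2 fold change of -0.22. After UCN1 Socs3 was the 1 inhibitor called, against 0.304% of all genes tested called higher, and the median of the list was 0.06.

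The list of genes known to be induced through STAT3 held 28 genes, of which 21 were tested in the surgery experiment. There 10 rose and 1 fell, and the median log2 fold change was 0.31. Over all genes tested 10.5% were called higher and 12.3% lower. Serpina3n, an inhibitor of serine proteases, was at 86.7, 81.5 and 79.0 FPKM in sham and at 161, 169 and 155.5 FPKM in pIONT. Its level nearly doubled with no overlap (log2 fold change 0.97, SE 0.05, limma adjusted p = 8.79e-05). Hamp, the gene of the iron hormone hepcidin, was at 0.623, 0.679 and 0.809 FPKM in sham and at 3.63, 2.26 and 2.64 FPKM in pIONT, low in level but without overlap (log2 fold change 1.45, limma adjusted p = 0.00155). Il4ra, the shared receptor chain for IL-4 and IL-13, was at 3.85, 4.35 and 3.34 FPKM in sham and at 12.2, 11.6 and 8.49 FPKM in pIONT (log2 fold change 1.37, limma adjusted p = 0.00163). Hamp and Serpina3n have close paralogs, among which counting could split reads, so their values are less certain. Il4ra shares 9.51% of its exon bases with an antisense gene. The gene that fell, named after its values were seen, was Bcl2l1, which encodes a protein that protects from cell death (log2 fold change -0.28, limma adjusted p = 0.00817).

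After UCN1 22 genes of that list were tested and 5 rose, with a median log2 fold change of 0.30: Socs3, Bcl6, Sbno2, Junb and Gfap. Socs3, Bcl6 and Sbno2 are members and were counted above. Over all genes tested 0.304% were called higher. Junb, an immediate early gene of the AP-1 family, was at 11.4 and 11.2 FPKM after PBS and at 21.2 and 18.8 FPKM after UCN1 (log2 fold change 0.80, SE 0.12, limma adjusted p = 0.0412). In the surgery experiment Junb was at 7.50, 7.03 and 8.29 FPKM in sham and at 8.31, 9.63 and 8.66 FPKM in pIONT (log2 fold change 0.21, limma adjusted p = 0.0960). Junb shares 7.52% of its exon bases with Prdx2 on the opposite strand, and its annotated span differs in length between the experiments. Gfap, the intermediate filament of astrocytes and of some peripheral glia, was at 2.63 and 1.35 FPKM after PBS and at 6.81 and 7.39 FPKM after UCN1 (log2 fold change 1.66, SE 0.26, limma adjusted p = 0.0462). In the surgery experiment its sham values ranged from 0.734 to 11.3 FPKM, with sham 1 the highest, and overlapped those of pIONT (limma adjusted p = 0.783). Junb lost its call when any 1 of the 4 injection libraries was left out (log2 fold changes of 0.72 to 0.88), and Gfap without PBS 2, UCN1 1 or UCN1 2 (1.28 to 2.04 over all 4 fits). Serpina3n was at 100.2 and 94.2 FPKM after PBS and at 115 and 126 FPKM after UCN1, without overlap and not past the threshold (limma adjusted p = 0.212). The motif TTCNNNGAA stood in the start windows of 10 of 25 matched genes of the list, members included, and in 2 of 9 inhibitors. It stood in 0 of 6 receptors and 0 of 10 JAK and STAT genes. Over all genes the share was 9.55%, from which such small counts of 0 cannot be set apart.

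**Figure D5:**
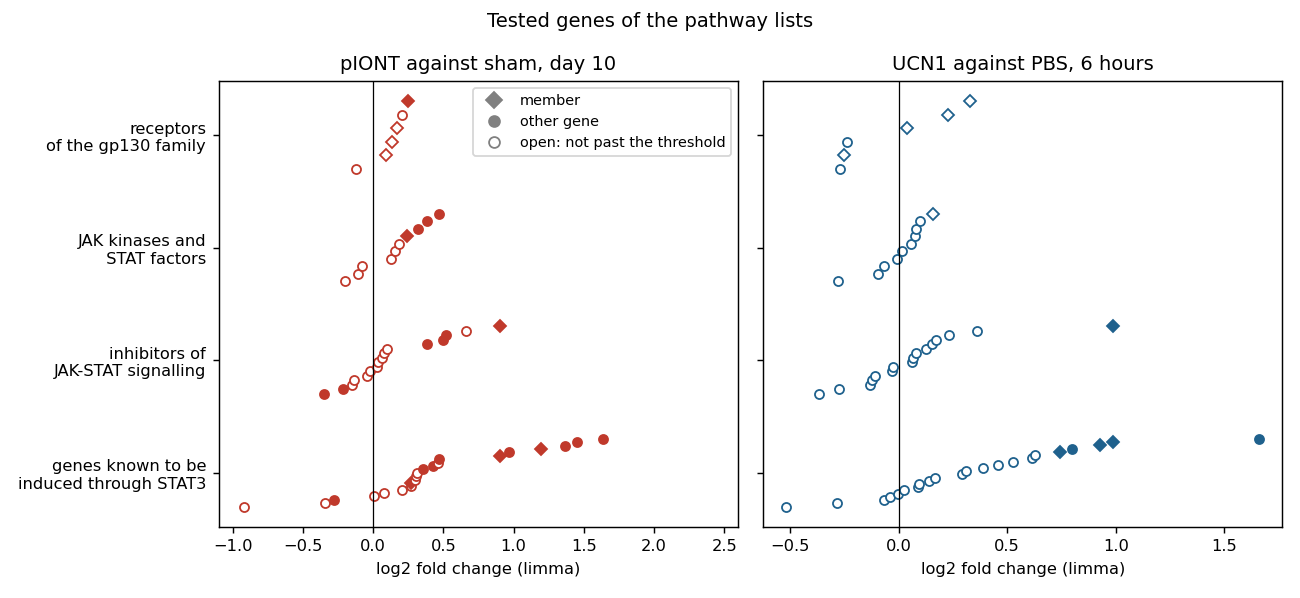
Log2 fold changes of the tested genes of 4 pathway lists in both experiments; each point is a gene, diamonds are members, and filled symbols have an adjusted p under 0.05. After pIONT filled symbols stand in all 4 lists, and after UCN1 they stand among the inhibitors (Socs3) and the genes known to be induced through STAT3 (5 genes).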

How the data were processed

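RNA of trigeminal ganglia was sequenced in 10 libraries of 4 groups. Each experiment has its own table, whose values the authors deposited in FPKM. Per the submitters' processing notes the build was GRCm39 and the tools included DESeq2, HTSeq and STAR, without versions. GENCODE vM21 (GRCm38) gave the same start and end for 99.42% of identifiers of the injection experiment and 1.99% of the surgery experiment, so printed coordinates are those of GRCm38. The sources used here do not state whether counting used strand.

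The test was limma (version 3.58.1, R 4.3.3), two-sided, applied to log2(FPKM + 0.5) of genes with a mean of 0.5 FPKM or more in the experiment, with a trended variance, no covariate and Benjamini-Hochberg adjustment over all genes tested. The script was also run on simulated reads, with the same dispersion for every gene and no outlying library. These data differ in that, so the simulated run does not bear on the calls given here. Low values were whole multiples of a step within 0.1 reads, up to 20 reads, for 92.6% to 93.1% of values (surgery, union of exons as length) and 98.9% to 99.0% (injection, mean transcript length). Reads recovered from them gave the depth and a voom fit. Read intervals cover counting error only.

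The members and the 5 pathway and 11 marker lists were chosen with earlier results of these data known. Named were all members and, from each pathway list in each experiment, up to 4 called genes by smallest p or, with none called, up to 2 with the highest mean. The results of 1 gene that the rule took, and the counts of the ligand list, are not reported here. Alternatives were other pseudocounts, filters, scalings and fits, and leaving out each library.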

Additional observations from a re-analysis of the deposited data

How the results depend on the processing

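In the surgery experiment Socs3, Sbno2, Stat3 and Lifr kept their direction and stayed past the threshold in all 16 alternatives (log2 fold changes of 0.77 to 1.01, 1.13 to 1.27, 0.21 to 0.27 and 0.21 to 0.27). Bcl6 did so in 9 of 16, and its limma adjusted p reached 0.0880. It lost its call with no filter, on the TPM scale, under the replicate block and without pIONT 1, pIONT 3, sham 1 or sham 2. The count of members called was 4 or 5 throughout. In the injection experiment Socs3 and Bcl6 were past the threshold in 8 of 14 alternatives and Sbno2 in 6 of 14, with adjusted p-values up to 0.322, 0.483 and 0.484. With no filter and with no trend 0 members were called by limma (5 and 4 with an unadjusted p under 0.05), and leaving out 1 library gave 0 to 0. Sbno2 also lost its call with a pseudocount of 0.1 and on the TPM scale. No result turned its direction among the called genes named.

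The count of all genes called after pIONT was 3344, and 1689 to 2969 without 1 library, the lowest being without sham 3 (1689) and without sham 2 (2076). After UCN1 it was 97, and it was 2 with no filter, 155 with a filter of 2 FPKM, 5 with no trend, 350 with voom and 5 to 38 without 1 library. The share of calls that were higher after pIONT was 46.0%, 36.7% on the TPM scale and 54.5% with median-of-ratios scaling.

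Deviations from the group mean gave correlations between same-numbered libraries of -0.06, -0.20 and 0.07 in the surgery and 0.04 and 0.04 in the injection experiment. With 2 libraries a group the 2 injection values are equal by construction, and 3 a group constrain them too. These values therefore cannot decide whether the numbers pair the samples. With a replicate block 2085 genes were called after pIONT and 260 after UCN1, with 4 and 3 members. Depth limits Lif and Cntf, with at most 62 reads in a group. The causes of these shifts were not tested.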

Other observations

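Some low genes of the route stood out in the recovered reads of the surgery experiment and were chosen after their values were seen. None reached the filter of 0.5 FPKM, so none was tested, and the intervals cover counting error only. Il6, the gene of the cytokine IL-6, had 5 reads over the 3 sham libraries (0 to 3 each) and 36 over the 3 pIONT libraries (8 to 15 each), a rate ratio of 6.85 with a 95% interval of 2.68 to 22.4. Il27, which encodes a subunit of another cytokine that signals through gp130, had 8 against 43 reads, a ratio of 5.12 (2.38 to 12.6). Il27 shares 10.1% of its exon bases with Apobr on the opposite strand, and its reads cannot be told apart from those of Apobr there. Reg3b, a secreted lectin known to be induced in injured neurons, was listed at 0 in all 3 sham libraries and had 10 to 29 reads in each pIONT library, 50 in all. Osm, the gene of oncostatin M, had 17 against 29 reads with overlapping libraries (1.62, 0.863 to 3.15), and Il11 had 22 against 22 (0.952, 0.503 to 1.80).

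In the injection experiment Il6 had 5 reads after PBS and 10 after UCN1, a ratio of 1.94 with an interval of 0.605 to 7.25. Reg3b was listed at 0 in all 4 libraries.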
